A study of Arabidopsis thaliana with 434 samples.

Results

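ANAC084 (AT5G14000) and ANAC096 (AT5G46590) are 2 of the 49 NAC transcripts counted in Arabidopsis thaliana leaves, and both were followed over leaf age and over insertion lines. They were chosen by locus, and with one measured value in view: the level of ANAC084 in the line labelled anac084, which is therefore given below without a test. The samples were 434 in all, each a leaf sample of the Columbia ecotype (Col) or of 1 of 49 lines that carry a T-DNA insertion, 1 line per NAC gene, at 14, 18, 22 and 26 d of leaf age. Col is the parent of every line. The insertions came from the SALK, SAIL and GABI-KAT collections, and plants grew under long days with no other treatment named. Col was sampled 10 times at 14 d and 8 times at every other age, the line anac092 4 times per age, and the remaining lines 2 times. Titles give a letter, A to D, and every line was compared with the Col samples of its letter and age. The line anac084 stood under letter D, and anac096 under letter B. No label states whether replicate samples stem from different plants, so p-values cover only the variation among the samples at hand, part of which may be technical. They also do not give the positions of probes or insertions, and a probe outside the disrupted stretch checks nothing. The panel held no marker of leaf or of a leaf cell type, so the labelled tissue could not be checked.

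NAC proteins are plant-specific transcription factors that bind DNA through a conserved N-terminal domain, and many of them act in development, stress responses and leaf senescence. ANAC096 is known to act together with ABF2 and ABF4, bZIP factors of the abscisic acid pathway, in the response to dehydration, and together with ANAC071 in the formation of cambium-like cells at wounds. ANAC084 is a family member for which little is established. A leaf loses chlorophyll and recycles its contents as it ages, and the NAC factors ORE1 (ANAC092) and NAP (ANAC029) promote that process. In a RefSeq gene table, ANAC084 lies between EXO70C2 and KNU and has 3 transcripts, while ANAC096 lies between AT5G46580 and AT5G46600 and has 2; neither overlaps another listed gene. Which of these transcripts a probe detects is not stated in the labels.

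The counts came from the NanoString nCounter, an instrument that counts labelled probes bound to RNA without amplification, from 100 ng of total RNA. Total counts per sample ran from 31613 to 687229. A normalised count below is the raw count divided by the mean of 4 reference transcripts in the sample (ACT2, ACT7, TUB2 and UBQ10) and multiplied by the mean of that value over samples. Both transcripts were scarce. At the 4 successive ages the median raw count of ANAC084 in Col was 26, 8.5, 26.5 and 76.5, against a mean of 7.26, 4.89, 5.91 and 5.34 for the negative control probes. ANAC084 exceeded the mean plus 2 SD of the negative probes of the same sample in 10 of 10, 3 of 8, 7 of 8 and 8 of 8 Col samples at these ages. At 18 d it was thus close to background. ANAC096 exceeded that level in every Col sample, with median raw counts between 33.5 and 72.5.

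In Col leaves ANAC084 was low until 18 d and then climbed. At 14 d its normalised count ran from 14.0 to 28.4 with a median of 18.6, and the mean was 19.2 ± 4.56 (SD, n = 10). At 18 d the lowest, median and highest values were 4.36, 12.6 and 20.8, with a mean of 12.3 ± 5.64 (SD, n = 8). At 22 d they were 15.1, 31.2 and 106, with a mean of 39.4 ± 30.3 (SD, n = 8), and sample A2 alone lay above 57.0. The samples at 22 d were thus widely spread and overlapped those at 14 and 18 d. At 26 d they were 52.9, 76.3 and 135, with a mean of 86.2 ± 29.7 (SD, n = 8). Every sample at 26 d lay above every sample at 14 and 18 d. With edgeR's quasi-likelihood model and p-values adjusted over 47 genes (Benjamini-Hochberg), the log2 change from 14 to 26 d was 2.06 (SE 0.30, 95% interval 1.47 to 2.66, adjusted p = 2.4e-10). The same test called 46 of the 47 genes, or 97.9%, so a call alone does not set ANAC084 apart. The mean at 26 d was 4.49 times that at 14 d, and 5.34 times after subtraction of the negative probes. In a bulk sample, fewer cells of a type and less RNA per cell cannot be told apart.

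The steps between ages were uneven. From 14 to 18 d the fitted log2 change of ANAC084 was -0.70 (SE 0.36), which did not pass the test (edgeR adjusted p = 0.11), where 38.3% of genes were called. It did pass as a fall with TMM scaling (-0.84), DESeq2 (-0.85) and limma on the authors' log2 values (-1.84), and without Col sample A2 of 18 d (-1.0, edgeR adjusted p = 0.038). From 18 to 22 d it rose by 1.53 (SE 0.37, edgeR adjusted p = 1.2e-04), with 78.7% of genes called. From 22 to 26 d it rose by 1.24 (SE 0.31, edgeR adjusted p = 0.0058), where 27.7% of genes were called. The last call was lost when Col sample A1 of 22 d was left out (1.07, edgeR adjusted p = 0.052). From 14 to 22 d it rose by 0.83 (SE 0.32, edgeR adjusted p = 0.011; 93.6% of genes called), a call that was lost without Col sample A2, C1 or D2 of 22 d (0.58 at the lowest). It was also lost with TMM scaling (0.20), DESeq2 (0.18) and limma (0.63). In order of level, 18 d was lowest and 26 d highest, and whether 14 d differed from its neighbours 18 and 22 d depended on the scale. Within each letter, all Col samples at 26 d lay above all those at 14 d, and the log2 ratio of the means was 1.93 in A, 2.39 in B, 1.64 in C and 2.44 in D. The share of genes separated so within letters was not counted. Since 39 of the 47 genes rose from 14 to 26 d by edgeR's test, this separation does not set ANAC084 apart.

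ANAC096 changed far less with leaf age in Col. Its normalised count at 14 d ran from 31.6 to 51.8 with a median of 43.0 (mean 42.9 ± 5.38, SD, n = 10). At 18 d the lowest, median and highest values were 31.8, 42.2 and 67.5 (mean 44.1 ± 11.6, SD, n = 8). At 22 d they were 33.6, 55.6 and 75.8 (mean 57.3 ± 13.9, SD, n = 8), and at 26 d they were 48.2, 55.4 and 62.4 (mean 55.6 ± 4.78, SD, n = 8). The ranges of all 4 ages overlapped. Scaled to the references, the level at 26 d was higher than at 14 d by 0.37 on the log2 scale (SE 0.14, 95% interval 0.09 to 0.64, edgeR adjusted p = 0.0090), but this direction flipped to -0.44 with TMM scaling and to -0.54 with DESeq2. The 2 younger ages did not differ past the test (0.01, SE 0.14, edgeR adjusted p = 0.95), and neither did the 2 older ones (-0.03, SE 0.15, edgeR adjusted p = 0.84). The step between 18 and 22 d was 0.39 (SE 0.15, edgeR adjusted p = 0.015), but it was -0.02 with TMM scaling and -0.06 with DESeq2, and the call was lost without Col sample D1 of 18 d or C1 of 22 d (edgeR adjusted p up to 0.070). From 14 to 22 d the change was 0.40 (SE 0.14, edgeR adjusted p = 0.0051), against -0.15 with TMM scaling and -0.21 with DESeq2. Within letters the log2 ratio of the means at 26 d over 14 d was 0.40 in A, 0.37 in B, 0.55 in C and 0.17 in D. The samples did not overlap in A, B and C, a separation whose share over all genes was not counted.

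**Figure D1:**
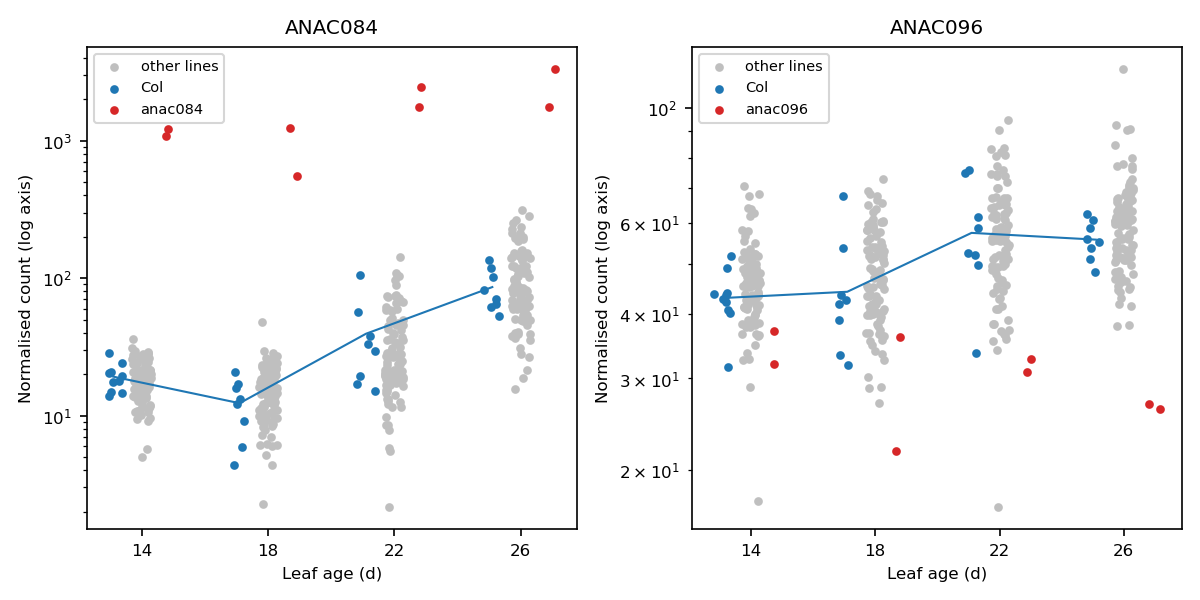
Normalised counts (log axis) of ANAC084 and ANAC096 by leaf age in days, with 1 point per sample for Col (blue, line through the means), the line named after the gene (red) and all other lines (grey). The Col mean of ANAC084 goes from 19.2 at 14 d to 86.2 at 26 d, and every anac084 sample lies above 555. The Col means of ANAC096 stay between 42.9 and 57.3, with single samples from 31.6 to 75.8.

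The scalings moved the whole panel together and left the place of both genes within it almost as it was. The median log2 change of all 47 genes from 14 to 26 d was 1.12 with the references, 0.30 with TMM scaling and 0.18 with DESeq2. Relative to that median, ANAC084 changed by 0.94 with the references, 0.94 with TMM scaling and 0.99 with DESeq2, and ranked 10 of 47 from the top each time. ANAC096 lay below the median by the same reckoning, at -0.75, -0.74 and -0.72, and ranked 38 of 47 each time. ANAC084 itself rose under each scaling, by 1.24 with TMM scaling and 1.17 with DESeq2. The change of ANAC096 was below the panel's median in all 3, while its own sign differed between them.

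**Figure D2:**
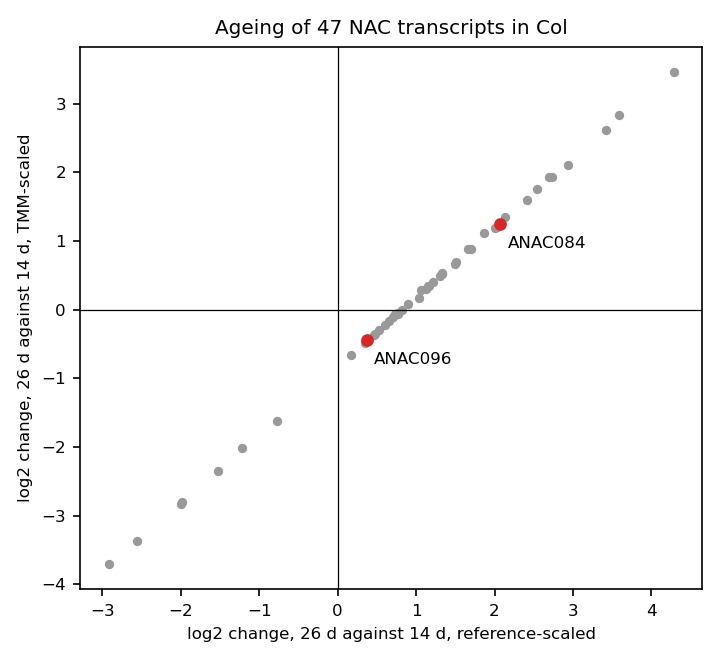
Log2 change of each of 47 NAC transcripts in Col from 14 to 26 d, scaled to the references (horizontal axis) and by TMM (vertical axis), 1 point per gene with ANAC084 and ANAC096 in red. ANAC084 is above 0 on both axes (2.06 and 1.24), and ANAC096 is at 0.37 on the horizontal axis and at -0.44 on the vertical one.

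A ratio of the 2 transcripts within a sample needs no reference, and its change with age was tested on the raw counts. The log2 ratio of ANAC084 over ANAC096, with 1 added to each count, ran in Col from -1.61 to -0.49 at 14 d with a median of -1.06 (mean -1.16 ± 0.35, SD, n = 10). At 26 d it ran from -0.14 to 1.47 with a median of 0.42 (mean 0.56 ± 0.58, SD, n = 8). The groups did not overlap, since 8 of 8 samples at 26 d lay above all those at 14 d. The difference was 1.71, and the exact two-sided permutation p was 4.6e-05, the smallest that 43758 arrangements can give. In between, the ratio averaged -1.81 ± 0.90 at 18 d and -0.78 ± 1.11 at 22 d (SD, n = 8 each). Only the change of this ratio is read, because the probes may differ in efficiency.

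The rise with age also held inside the lines. In 45 of the 48 lines other than anac084, every ANAC084 value at 26 d lay above every value at 14 d. The same was true of 77.2% of all pairs of line and other gene, so this count is read against that background. The exceptions were anac021, anac061 and anac092, and their means were still higher at 26 d, by 0.89, 2.76 and 1.62 on the log2 scale. For ANAC096, scaled to the references, the 26 d samples lay above the 14 d samples in 31 of the 48 lines other than anac096. They lay below in 1 of these, anac084 (-0.33), where 13.9% of all pairs lay below. In anac096 itself both samples at 26 d (26.8 and 26.2) also lay below both at 14 d (32.0 and 37.1), with a log2 ratio of -0.38. The median log2 ratio over the lines was 2.56 for ANAC084 and 0.39 for ANAC096, and the latter sign again depends on the scale.

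NAC genes grouped by known role give a frame for these values. Of 10 senescence-promoting NACs, 10 rose from 14 to 26 d by edgeR's test and the median log2 change was 2.47, beside the 2.06 of ANAC084; with TMM scaling 9 rose and 0 fell, and with DESeq2 8 rose and 0 fell. ANAC016, a promoter of chlorophyll loss, rose by 2.41 (SE 0.23) and ANAC092 by 1.87 (SE 0.32). Of 8 NACs tied to abscisic acid and drought, 8 rose, with a median of 1.58, and ANAC072, which is induced by drought, rose by 1.07 (SE 0.16). ANAC096, itself placed in that pathway, stood at 0.37 and thus below each of the 8, the lowest of which was ANAC083 at 0.77. With TMM scaling 6 of these 8 rose and 0 fell, and with DESeq2 5 rose and 0 fell. Of 5 tested vascular NACs, 1 rose and 4 fell, with a median of -1.53. ANAC045, which acts in phloem sieve elements, fell by 2.92, and ANAC104, a xylem factor, rose by 1.03 (SE 0.21). ANAC104 did not pass with TMM scaling (0.17) or DESeq2 (0.07). Over all 47 genes, 39 rose and 7 fell with the references, 24 and 14 with TMM scaling and 22 and 16 with DESeq2.

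Some transcripts followed the same course as ANAC084 from sample to sample. Over the 34 Col samples, which share the age trend and the reference scale, ANAC084 was most like ANAC047 (Pearson r = 0.88, Spearman rho = 0.72), ANAC032 (0.84 and 0.77) and ANAC019 (0.84 and 0.76), with a median r of 0.61 over the other genes. The lowest was ANAC028 (-0.61 and -0.59). After the mean of each age was removed, the closest were ANAC079 (0.72 and 0.63), ANAC047 (0.68 and 0.52) and ANAC002 (0.63 and 0.64), and the median r was 0.17. ANAC047, which is induced by ethylene and flooding, was thus near the top both across and within ages. ANAC096 came last among the 46 other genes within ages (r = -0.45, rho = -0.35, n = 34). These are descriptions of 34 libraries and carry no test.

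On the reference scale ANAC096 had low correlations with other transcripts, and they depended on that scale. Over all Col samples the highest values were those of ANAC056 (r = 0.49, rho = 0.52), NTL9 (0.47 and 0.50) and ANAC017 (0.46 and 0.51), against a median r of 0.37, and the lowest was ANAC028 (-0.49 and -0.51). Within ages the highest were ANAC035 (0.28 and 0.25), ANAC010 (0.28 and 0.20) and ANAC074 (0.17 and 0.13), and the lowest was ANAC079 (-0.53 and -0.39). With the mean of all tested genes subtracted from each sample, the highest over all Col samples were NTL9 (0.72 and 0.69), ANAC018 (0.71 and 0.62) and ANAC014 (0.71 and 0.67), and the lowest was ANAC047 (-0.74 and -0.76). Within ages on that scale ANAC018 was highest (0.65 and 0.65) and ANAC047 lowest (-0.65 and -0.50). NTL9 and ANAC017 encode membrane-tethered NAC factors. With raw counts of 17 to 132 in Col, counting error takes up part of the spread of ANAC096.

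In the line labelled anac084 the ANAC084 transcript was abundant, although the line is named after an insertion in that gene, and this is the value on which the choice of the gene rests. The normalised counts of its sample pairs were 1082 and 1211 (14 d), 555 and 1233 (18 d), 1749 and 2475 (22 d) and 1755 and 3336 (26 d). The Col samples of letter D held 19.5 and 24.3, then 17.0 and 12.1, then 15.1 and 37.9, then 135 and 103. Every anac084 sample thus lay far above every Col sample of its age. The means were 52.4, 61.6, 79.6 and 21.4 times those of Col at the successive ages, and the average log2 change was 5.59 (SE 0.31). The factor was smallest at 26 d, where Col itself was highest. From raw counts and reference means summed over samples, the share of Col was 5739% at 18 d and 8232% at 22 d. After subtraction of the negative probes the share stood at 10959 and 10957% at these ages. The highest ANAC084 value among the 426 samples of other genotypes was 314, in anac042 sample B2 at 26 d, so the lowest anac084 sample stood 1.77 times above it. Within anac084 the mean at 26 d was higher than at 14 d by 1.15 on the log2 scale.

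The rest of the panel in anac084 is given as values only, since it comes from the same comparison. Averaged over the ages, the 46 other genes lay between -0.26 and 0.61 with a median of 0.11, and 37 of them were above 0. The 3 largest rises were ANAC047 (0.61, SE 0.29), ANAC016 (0.60, SE 0.24) and ANAC042 (0.51, SE 0.34). ANAC042, also named JUB1, is known to delay senescence. The 3 lowest values were those of ANAC028 (-0.26, SE 0.26), ANAC101 (-0.21, SE 0.20) and ANAC074 (-0.08, SE 0.29). ANAC096 held 67.5 and 62.6 normalised counts at 14 d against 40.6 and 51.8 in Col of letter D, and at 26 d it held 46.3 and 57.2 against 48.2 and 55.8. Its average change in anac084 was 0.06 (SE 0.15).

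In the line anac096 the ANAC096 transcript was reduced but still present. At 14 d its samples held 32.0 and 37.1 normalised counts against 49.1 and 31.6 in Col of letter B, and the groups overlapped. At 18 d they held 36.0 and 21.7 against 43.4 and 67.5. At 22 d they held 30.9 and 32.6 against 49.7 and 61.6. From 18 d on, both samples of the line lay below both Col samples of the letter. At 26 d they held 26.8 and 26.2 against 53.5 and 51.1, below every Col sample of any letter. The share of Col of letter B was taken from raw counts and reference means summed over samples. It was 85.5% at 14 d (exact 95% Poisson interval 60.4 to 121) and 60.2% at 18 d (40.5 to 88.6). At 22 d it was 55.9% (38.99 to 79.4) and at 26 d 50.3% (34.1 to 73.0). The intervals cover counting error only. The ratio of the mean normalised counts was 0.85, 0.52, 0.57 and 0.51 at the successive ages. Subtraction of the negative probes gave 85.5, 48.6, 49.9 and 44.7%.

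Averaged over the ages, ANAC096 in anac096 fell by 0.67 on the log2 scale (SE 0.14), with an edgeR adjusted p of 8.7e-06 over 47 targets. By age, the fitted change was -0.27 (14 d, edgeR adjusted p = 0.40), -0.68 (18 d, 0.078), -0.68 (22 d, 0.034) and finally -1.06 (26 d, 7.4e-04), adjusted over 188 tests. Across the series 42% of these tests of a target in its own line were called lower. The call at 22 d was lost without Col sample B2 of that age, without the samples numbered 1 or those numbered 2 of every line (edgeR adjusted p up to 0.20), and when that age was fitted alone (0.065). The fall at 18 d passed with limma (-0.96). The change of the effect between 14 and 26 d was -0.79 (SE 0.40) and did not pass the test (edgeR adjusted p = 0.14 over 47 targets). By average change, ANAC096 ranked 22 of 47 targets from the most reduced.

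Other transcripts in anac096 gave no call. By edgeR's test 0 of 46 other genes passed for the average over ages, where 1.15% of all pairs of line and other gene were called. Of the 46, 0 had an unadjusted p under 0.05, a share that was not counted over all pairs. Age by age 0 of 184 tests passed, where 0.133 to 1.42% of all pairs were called. An unadjusted p under 0.05 was found in 4 of the 184, against 3.81 to 6.91% of all pairs by age. The lack of a call thus does not set anac096 apart. The largest values were those of ANAC010 (0.59, SE 0.31, edgeR adjusted p = 0.67), ANAC101 (0.25, SE 0.20) and ANAC019 (0.24, SE 0.32), and the lowest those of AT3G12910 (-0.60, SE 0.49), ANAC087 (-0.33, SE 0.38) and ANAC042 (-0.23, SE 0.31). The NACs tied to abscisic acid and drought had a median change of 0.04 in this line, against -0.02 for all genes. ANAC084 held 5.71 and 12.02 normalised counts in anac096 at 14 d against 17.8 and 17.5 in Col of letter B, and 53.5 and 151 at 26 d against 64.9 and 119. Its average change was -0.02 (SE 0.34, edgeR adjusted p = 0.9997). With that error a change of either sign well above 0.34 could also have been missed. In anac052, for example, an average change of ANAC084 of 0.76 (SE 0.33) did not pass (edgeR adjusted p = 0.53).

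**Figure D3:**
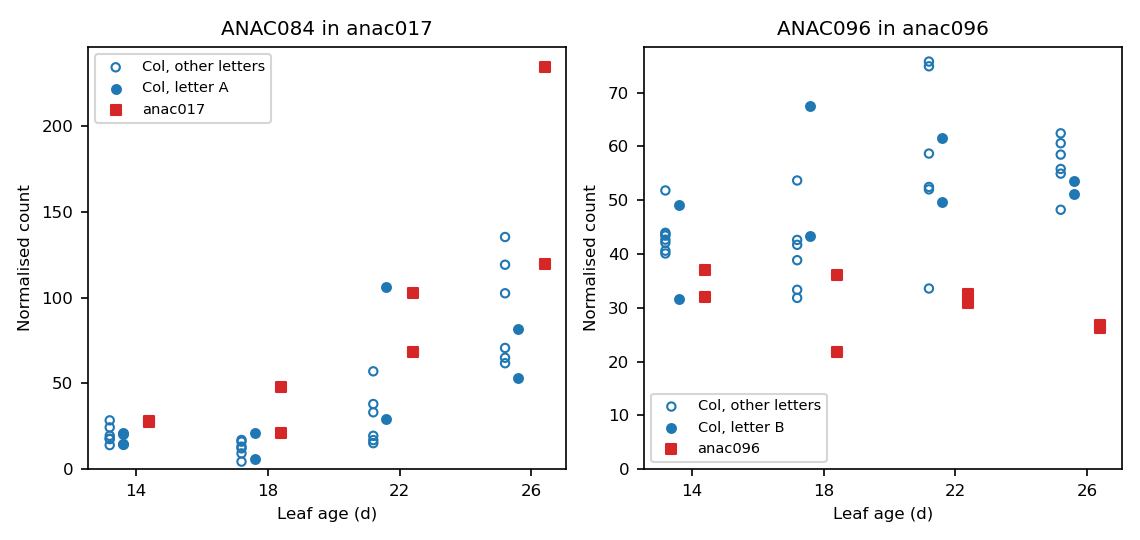
Normalised counts by leaf age in days of ANAC084 in anac017 (left) and of ANAC096 in anac096 (right), 1 point per sample, with Col of the same letter as filled and Col of other letters as open circles. ANAC084 reaches 235 in anac017 at 26 d, and ANAC096 in anac096 is at 26.8 and 26.2 at 26 d, below every Col sample.

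In the edgeR model with the letter as covariate, no line passed the test for either transcript at a single age. For ANAC084 it called 0 of the 48 lines other than anac084 at each age, with an unadjusted p under 0.05 in 0, 1, 2 and 8 lines at the successive ages; DESeq2 and limma also called 0 at each age. Over all pairs of line and other gene, 1.42, 0.222, 0.133 and 0.355% were called at these ages, and 6.91, 4.65, 3.81 and 5.63% had an unadjusted p under 0.05. For ANAC096 edgeR called 0 of 47 lines at each age, with an unadjusted p under 0.05 in 0, 2, 0 and 1, and DESeq2 and limma called 0. With the title number within letter and age as a block, edgeR called anac017 for ANAC084 at 26 d (1.62, edgeR adjusted p = 0.043). At the other ages, and for ANAC096 at each age, that model called 0 lines. The error sets what could be seen: the SE of a line effect at 26 d had a median of 0.57 for ANAC084 and 0.27 for ANAC096. The effect of a line also did not change between 14 and 26 d past the test in any of these lines, for either gene, by edgeR, DESeq2 or limma. There 0.133% of all pairs were called, and 1 line for ANAC084, anac032 (1.72, SE 0.78), and 0 for ANAC096 had an unadjusted p under 0.05 by edgeR. The share of all pairs under that unadjusted p was not counted for this change.

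Line means of ANAC084 were widely spread at 26 d, but so were the samples within a line. The lowest line mean was 35.3 normalised counts in anac029, the median 99.6 and the highest 213 in anac042, from samples of 113 and 314. Fitted log2 changes ran from -1.33 to 1.65 with a median of 0.13. Of 48 lines, 7 lay wholly above and 6 wholly below Col of their letter, close to the 14.8% and 12.6% of all pairs. The samples of a line differed from each other by a median of 0.92 on the log2 scale at 26 d, where the median over genes was 0.40, so the duplicates of ANAC084 were among the least alike (rank 5 of 47). Of the 8 lines with an unadjusted p under 0.05, 6 were higher and 2 lower. The higher ones were anac017, anac032, anac050, anac079, anac087 and anac090, of which the first 5 share the Col samples of letter A, and the lower ones anac056 and anac092. All 8 were named after their values were seen. ANAC084 in anac090 was 104 and 282 against 61.7 and 70.6 in Col of letter C, and in the line labelled anac087 it was 78.3 and 251 against 52.9 and 82.0. The transcript each line is named after was itself not low in all of them. At 26 d it stood at 4.92% of Col of the letter in anac079, 18.8% in anac090 and 40.9% in anac050, each called lower by edgeR. It stood at 240% in the line labelled anac017 and 1153% in the line labelled anac087, both called higher, and at 155% in anac032, 77.9% in anac056 and 69.7% in anac092, none called. ANAC087 was also far above Col in the line labelled anac087 at 14 d, with 5055 and 5827 normalised counts.

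At the younger ages the ends of the order were these. At 14 d the largest rise of ANAC084 among lines whose samples did not overlap Col was in anac017 (28.1 and 27.5 against 14.6 to 20.9 in 4 Col samples, 0.73, SE 0.52), and the largest fall in anac096 (-1.18, SE 0.72). At that age 5 lines lay above and 9 below Col of their letter, against 10.8% and 16.3% of all pairs. At 18 d the largest rise was again in anac017, and 18 lines lay above and 0 below Col of their letter, against 23.7% and 9% of all pairs. At 22 d the largest rise was in anac090 (60.1 and 106 against 57.0 and 19.4, 1.12, SE 0.61) and the largest fall in anac078 (13.3 and 15.5 against the same, -1.40, SE 0.70), the single lines wholly above and below Col, against 13.6% and 11.7% of all pairs. At 26 d the largest fall was in anac056 (40.6 and 48.7 against 64.9 and 119, -1.33, SE 0.59). None of these passed the edgeR test (adjusted p of 0.25 or more).

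The line labelled anac017 was the one whose ANAC084 level passed when its effect was averaged over the 4 ages, a contrast added after the single ages had given no call. Its ANAC084 counts were 28.1 and 27.5 (14 d), 21.2 and 47.8 (18 d), 68.1 and 103 (22 d) and 120 and 235 (26 d). Col of letter A held 14.8, 14.6, 20.9 and 20.3 (14 d), 5.92 and 20.8 (18 d), 29.4 and 106 (22 d) and 52.9 and 82.0 (26 d). The line lay above all Col samples of its letter at 14, 18 and 26 d and overlapped them at 22 d. The average log2 change was 1.03 (SE 0.29, edgeR adjusted p = 0.042), the single call among 48 lines, where 1.15% of all pairs were called. ANAC017, a membrane-tethered regulator of the response to mitochondrial stress, was itself at 320, 274, 211 and 240% of Col of letter A in this line at the successive ages.

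The call in anac017 rests on few libraries. The adjusted p was 0.035 with DESeq2 but 0.056 with TMM scaling and 0.24 with limma on the authors' log2 values. Leaving out Col sample A1 gave an edgeR adjusted p of 0.052 for that of 14 d, 0.14 for 18 d, 0.17 for 22 d and 0.062 for 26 d, and leaving out B2 of 18 d or B1 of 26 d gave 0.0503 and 0.0536, so each of these 6 ended the call. Leaving out the 42 libraries with a reference mean under 0.5 of the median gave 0.0513. Without the samples numbered 1 of every line the change was 1.27 (edgeR adjusted p = 0.070), and without those numbered 2 it was 0.60 (edgeR adjusted p = 0.73); the lone sample per age that remains is assumed to vary like the groups with several. The next lines by average change were anac052 (0.76, SE 0.33), anac090 (0.74, SE 0.34) and anac050 (0.66, SE 0.31), and the lowest was anac056 (-0.61, SE 0.35). Of all 48 lines, 24 were above 0. An unadjusted p under 0.05 was found in 5 lines, the 4 highest and anac092 (-0.51, SE 0.25). The share of all pairs under that p was not counted for the average over ages, so this number cannot be set against the panel.

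**Figure D4:**
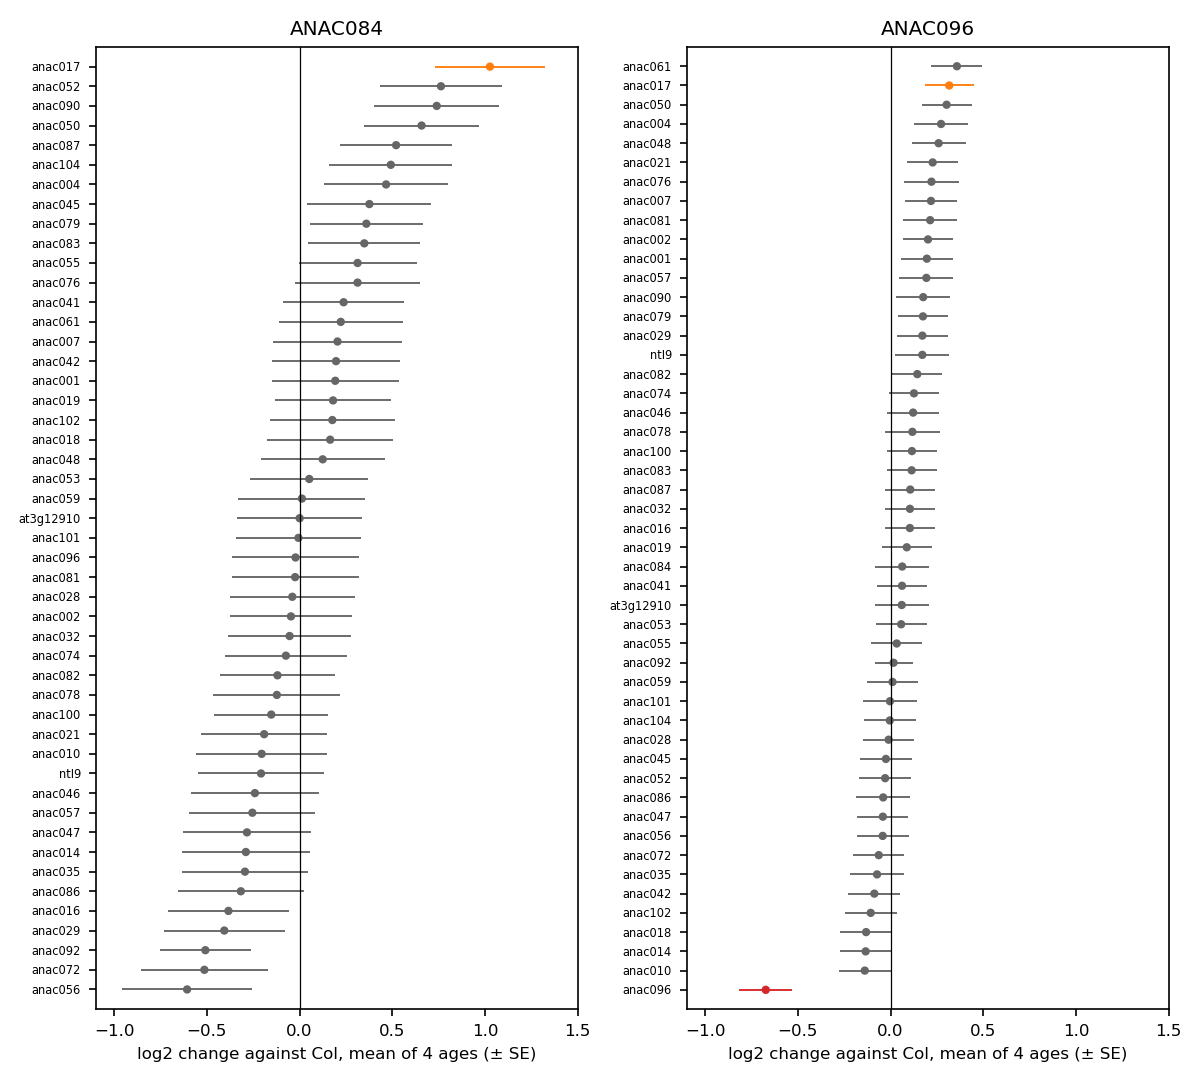
Log2 change of ANAC084 (left) and ANAC096 (right) against Col of the same letter, averaged over the 4 ages, for each insertion line, with bars of 1 SE. The line anac084 is left out on the left; anac017 (orange) stands highest for ANAC084 at 1.03, and anac096 (red) lowest for ANAC096 at -0.67, while the other lines for ANAC096 lie between -0.14 and 0.36.

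For ANAC096 the lines other than its own formed a narrow band. Averaged over ages their log2 changes ran from -0.14 to 0.36 with a median of 0.10. None was called by edgeR, where 1.15% of all pairs were called, or by DESeq2 and limma. By edgeR 3 lines had an unadjusted p under 0.05, a share that was not counted over all pairs. Those 3 were anac061 (0.36, SE 0.14, edgeR adjusted p = 0.39), anac017 (0.32, SE 0.13) and anac050 (0.30, SE 0.14). In anac061 the samples held 61.9 and 58.0 at 14 d against 49.1 and 31.6 in Col of letter B, and 80.1 and 90.7 at 26 d against 53.5 and 51.1. This line gave the largest rise at both ages (0.52, SE 0.27, and 0.62, SE 0.27). The line with the largest rise at 18 d was anac081 (51.1 and 67.7 against 38.8 and 33.3, 0.74, SE 0.31). In its 18 d samples ANAC081 itself ran from 41.4 to 263 normalised counts, or 19.8% of Col of the letter. At 14, 22 and 26 d it stood at 0.64, 0.13 and 0.12%, and the cause of this difference was not tested. At 22 d the largest rise was in anac029 (90.4 and 56.4 against 52.5 and 33.6, 0.56, SE 0.28). There the 90.4 came from 22 raw counts in a library with a reference mean of 10468, under 0.5 of the median. The other line with an unadjusted p under 0.05 at 18 d was anac048 (0.72, SE 0.30).

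Falls of ANAC096 are given for the lines whose samples did not overlap Col of their letter. The largest were found in the line labelled anac087 at 14 d (39.9 and 38.1 against 42.1 and 43.4, -0.12, SE 0.24), the single such line at that age, in anac102 at 22 d (34.1 and 37.1 against 49.7 and 61.6, -0.51, SE 0.29) and in anac010 at 26 d (41.7 and 41.4 against 53.5 and 51.1, -0.41, SE 0.28). Among lines that overlapped Col at 14 d, the lowest fitted change was -0.44 in anac014 (SE 0.28). At 18 d the largest fall was in anac053 (36.7 and 28.9 against 42.6 and 41.7, -0.57, SE 0.30). The library labelled anac053 A1 at 18 d held 212 counts of ANAC053 and 3.86 of ANAC055, while that labelled anac055 A1 held 5.35 and 163, which goes against both labels. Without these libraries 1 sample of anac053 remained at 18 d, with 28.9 counts of ANAC096, and the fitted change was -0.75.

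Across the line effects averaged over ages, ANAC084 was most like ANAC087 (Pearson r = 0.69, Spearman rho = 0.68, over 47 lines), ANAC047 (0.57 and 0.58) and ANAC046 (0.57 and 0.60), and least like ANAC045 (-0.43 and -0.40), with a median r of 0.27. ANAC046 and ANAC087 are known as promoters of senescence and cell death. ANAC096 was most like ANAC102 (0.54 and 0.47), ANAC104 (0.51 and 0.49) and ANAC004 (0.46 and 0.43), and least like ANAC101 (-0.22 and -0.25), with a median r of 0.26. ANAC084 and ANAC096 had an r of 0.34 (rho = 0.31) between their line effects. Lines of a letter share their Col samples and each sample its reference scale, so these values are descriptions without a test.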

How the data were processed

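Raw counts of 67 probes in 434 samples were used as deposited by the authors: 49 NAC genes, 4 references, 8 negative and 6 positive controls. The log2 values deposited by the authors served as an alternative; how they were made is not given in the labels. No label names the counting software. Groups came from the sample titles. All 53 gene probes matched a RefSeq table (TAIR10.1), used for names and neighbours.

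A quasi-likelihood fit of all samples was made in edgeR 4.0.16 under R 4.3.3, with a mean per genotype and age, the title letter within age as covariate and the mean of the references as offset. UBQ10 made up a median of 80.6% of the reference counts. Genes with a mean raw count above 12.6 (mean of the negative probes plus 2 SD) were tested, 47 in all. Benjamini-Hochberg adjustment ran over 47 genes for ageing, over 2256 pairs of line and other gene per age, for the average over ages and for the change with age, over 188 tests of targets by age and over 47 for targets averaged over ages, with a threshold of 0.05. Correlations used log2 of the normalised count plus 1. The ratio was tested by exact permutation (scipy 1.17.1). The procedure was tested on simulated data.

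The genes and lists were chosen with earlier results of these data known. Lines were first named by rule: those called, or otherwise the largest rise and fall among lines not overlapping Col of their letter. The lines of both genes were always named. Further lines, such as those with an unadjusted p under 0.05 or at the ends of an order, were named after their values were seen. Correlates were the 3 highest and the lowest. In the lines of both genes, the 3 largest rises and falls were named. Alternatives were TMM, DESeq2 1.42.0, other references, no filter, no letter, a replicate block, limma 3.58.1, separate fits, other pseudocounts, background subtraction and left-out samples. Of 345 sample pairs within groups, 0 were identical and 0 agreed within counting error.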

Additional observations from a re-analysis of the deposited data

Results flagged for a closer look

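Among 16 groups of 4 to 10 samples (Col and anac092 at each age, for both genes), 2 held a sample far from the others. For normally distributed values chance gives about 1 in 20 groups. The gaps were taken on normalised counts rather than log2 values, and whether these counts are normally distributed was not tested. ANAC084 in Col sample A2 at 22 d was 106 normalised counts, while the other 7 Col samples lay between 15.1 and 57.0. ANAC096 in anac092 sample A2 at 18 d was 69.1, while the other 3 samples lay between 36.2 and 41.7.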

How the results depend on the processing

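The rise of ANAC084 from 14 to 26 d was called under all 11 alternatives in scaling, filter, model and library (1.17 to 2.31), and the change of its ratio to ANAC096 under all 3 (1.45 to 2.04) and with each of 18 Col samples left out (1.58 to 1.81). The fall of ANAC096 in anac096, averaged over ages, was called under all 10 (-0.83 to -0.60). With TMM scaling the change of ANAC096 in Col was -0.44 from 14 to 26 d (edgeR adjusted p = 0.0032), -0.13 from 14 to 18 d, -0.15 from 14 to 22 d and -0.025 from 18 to 22 d; with DESeq2 these were -0.54 (adjusted p = 1.2e-04), -0.15, -0.21 and -0.057. From 14 to 18 d it was also -0.12 with limma and -0.12 without 42 libraries whose reference mean was under 0.5 of the median, the latter chosen after seeing the data. From 22 to 26 d it was 0.058 with the geometric mean of the references, 0.065 without UBQ10 and 0.022 with limma. With each Col sample or each numbered sample left out, the first of these steps ran from -0.097 to 0.094 and the last from -0.11 to 0.041. These reversals come with a change of scale or a value near 0, and the cause was not tested.

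Lines called for ANAC084 averaged over ages were 0 with TMM scaling, 0 with limma and 0 without the shallow libraries, and 0 to 1 over the samples left out. The replicate block, the title number within letter and age, called 1 line for ANAC084 at 26 d, anac017 (1.62, edgeR adjusted p = 0.043), and gave 2.11 for ANAC084 and 0.37 for ANAC096 from 14 to 26 d. Whether numbers pair samples was checked by correlating, over genes, the difference between numbers of each line with that of Col. This correlation was over 0.1 in 145 of 200 comparisons (median 0.31), so the numbers often differed alike in a line and in Col. That did not hold in every comparison and the labels do not explain the numbers, so the main model leaves them out. Its errors therefore do not allow for a shift shared by samples of a number. Fits of each age alone give no average or change over ages. Low counts limit ANAC084 at 18 d.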

Other observations

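At the extremes of the series, ANAC096 was lowest outside its own line in anac072 sample A1 at 22 d (16.9 normalised counts from 4 raw counts, in a library with a reference mean of 10172) and in anac018 sample B1 at 14 d (17.4 from 7 raw counts). It was highest in anac004 sample C2 at 26 d (119 from 81 raw counts). ANAC084 came from 1 raw count in anac056 sample B1 at 22 d and in anac014 sample B1 at 18 d.

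Samples of a line carried the numbers 1 and 2, whose meaning the labels do not give. At 26 d ANAC084 was higher in the sample numbered 2 in 35 of 49 pairs of a line and letter, where the median over genes was 67.3% of pairs. At 22 d it was higher there in 34 of 49 pairs, where the median over genes was 53.1%. Several samples numbered 1 under letter A were shallow at 22 d. Examples are anac053 (1 raw count of ANAC084, reference mean 5067) and anac074 (2 raw counts, reference mean 10042), both lower than their partners. In anac083 the shallow sample was the higher (58.3 from 11 raw counts, against 42.8). Whether depth accounts for the share of ANAC084 at 22 d was not tested. In anac061 at 26 d the samples held 21.4 and 229 normalised counts of ANAC084, with reference means of 38158 and 41760.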
